A study of Mus musculus with 6 samples.

Results

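Cadherins are calcium-dependent adhesion molecules of the cell membrane, and catenins join their cytoplasmic tails to the actin cytoskeleton. The transcripts described here are those of 3 cadherins (Cdh2, Cdh4 and Cdh13) and 6 catenins (Ctnna1, Ctnna2, Ctnnb1, Jup, Ctnnd1 and Ctnnd2). They were found by exact match of the gene symbol in the annotation of the array, which gave 23 probe sets of the 45101 on it. RNA was measured in the right and left GFP-positive motoneuron regions of the cervical spinal cord of 3 mouse embryos at E11.5. All 3 embryos carried the HB9::GFP transgene and came from 1 litter, so the right pool and the left pool of an embryo share genotype, stage and age, and there was no treatment. In HB9::GFP mice the promoter of Hb9 (Mnx1), a homeodomain factor of motoneurons, drives GFP, and the marked regions of the same sections were taken by laser capture, which gave 1 right and 1 left pool per embryo and 6 arrays in all. A captured region also holds the other cells that lie among the marked ones.

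In a classical cadherin the extracellular repeats bind the same or a related cadherin on the next cell. Its tail binds beta-catenin or plakoglobin, which in turn bind alpha-catenin, and p120-catenin holds at a site nearer the membrane and keeps the cadherin at the surface. Beta-catenin is also the nuclear effector of canonical Wnt signalling. In the spinal cord, adhesion through cadherins and catenins takes part in the gathering of motoneurons into columns and pools and in the cohesion of the neuroepithelium from which they are born.

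The values are MAS5 signals on a linear scale. Each array had the same trimmed mean, 500, and array medians lay between 99.9 and 118. All 9 motoneuron markers (Mnx1, Isl1, Isl2, Lhx3, Chat, Slc18a3, Slc5a7, Prph and Ret) reached a signal of 200, and Mnx1 read 3520 to 5139 in right pools and 3844 to 5219 in left pools. The right pool of embryo 1 stood apart in markers of other cells. The summed signal of 9 mesenchyme markers was 15259, 2387 and 1671 in the right pools of embryos 1, 2 and 3, against 1723, 894 and 1683 in the left pools, and that of 5 skeletal muscle markers was 4572, 152 and 283 in right pools, against 267, 315 and 383 in left pools. Of the mesenchyme markers 7 reached 200 in a right pool and 3 in a left pool, and of the muscle markers 4 and 0. Summed endothelial markers (7 genes) ranged from 1389 to 2438 in right pools and from 1716 to 2219 in left pools. Among 5 epithelial markers only Epcam reached 200, and Cdh1, the cadherin of epithelia, stayed at or below 42.2 in every pool.

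No cadherin or catenin met the fold rule of the study's methods, under which the 3 embryos must share a direction, and both the average ratio and that of 2 or more embryos must lie beyond 1.5-fold. Ratios are given as log2(R/L), the log2 of the right signal over the left signal of the same embryo, on which scale the limit is 0.58. A probe set was tested only if its highest signal reached 200, which 17 of the 23 did, for 8 of the 9 genes. The methods also asked for a present call in each embryo, which was not applied here, so the shares called are not those under the full filter of the study. Over these 17 the fold rule found 0 with right higher and 0 with left higher, whereas over all 21853 tested probe sets it found 2.40% and 1.55%. With limma, fitted across all tested probe sets with side and embryo as terms, 0 of the 17 passed an adjusted p of 0.05 and 0 had an unadjusted p under 0.05, against 0% and 3.40% of all tested probe sets. The adjusted p-values of the 17 ran from 0.974 to 0.998. The same direction in all 3 embryos was seen with right higher in 2 of the 17 (11.8%) and with left higher in 0, against 12.7% and 10.8% of all tested probe sets. The median of the mean log2(R/L) was 0.02 over the 17 and 0.02 over all tested probe sets. In bulk samples such as these, fewer cells of a type and less RNA per cell cannot be told apart. An exact sign-flip test over 3 embryos cannot give a p below 0.25, so no single gene was tested in that way.

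How small a difference these pools could show varied between the probe sets. The pointwise 95% interval of the limma estimate lay wholly inside the fold limit of 0.58 for 8 of the 17, which belong to 6 genes (Cdh2, Cdh13, Ctnna1, Ctnna2, Ctnnb1 and Ctnnd2), against 26.9% of all tested probe sets. These shares are not matched for signal: 9 of the 17 had a mean signal of at least 1000, against 6985 of all 21853. Other tested probe sets of Cdh13, Ctnnb1 and Ctnnd2 did not lie inside the limit. For those 8 an average difference of 1.5-fold lies outside the interval. For the other 9 such a difference lies within the interval in at least 1 direction. Some of them leave out the other direction. Examples are right higher for Ctnnb1 (1450008_a_at, fold 0.666 to 1.15) and left higher for Ctnnd2 (1422592_at, 0.894 to 2.12). No difference can be read from these 9, nor the lack of one in both directions.

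**Figure D1:**
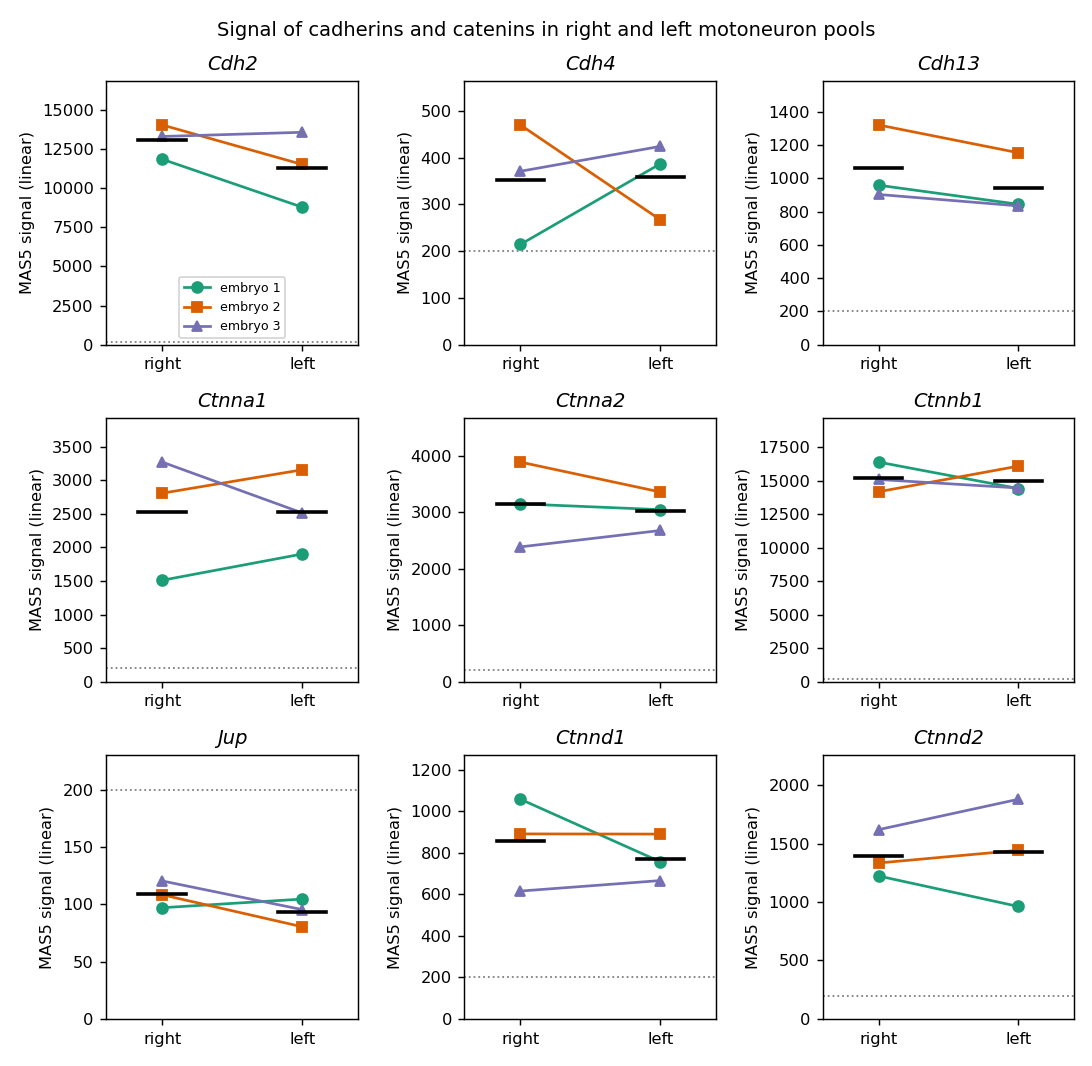
MAS5 signal (linear axis from 0) of the brightest probe set of each of the 9 genes in the right and left pool of 3 embryos, with lines joining the pools of an embryo, black bars for the mean of each side (n = 3) and a dotted line at the signal limit of 200. Cdh13 lies higher on the right in all 3 embryos, Ctnnb1 stays between 14176 and 16387, and Jup stays below the limit in every pool.

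Cdh2 encodes N-cadherin, the main classical cadherin of the neural tube and its neurons. Its brightest probe set (1418815_at) read 11849.8, 14040.4 and 13306 in the right pools of embryos 1, 2 and 3, against 8786, 11517 and 13573 in the left pools. The sides overlapped: right was higher in embryos 1 and 2, and embryo 3 was nearly even. The mean was 13065 ± 1115 in right pools and 11292 ± 2401 in left pools (SD, n = 3), with a mean log2(R/L) of 0.23 ± 0.24 and a 95% interval from −0.05 to 0.51 (limma, adjusted p = 0.974). The second probe set of Cdh2 (1449244_at) read 2818, 3991 and 3481 in right pools, against 2443, 3161 and 3281 in left pools. Here right was higher in 3 of 3 embryos, by 0.21 ± 0.13 on average on the log2 scale (95% interval −0.11 to 0.53, limma adjusted p = 0.974). Over both probe sets right was higher in 5 of 6 ratios, against 51.3% of the ratios of all tested probe sets. The 6 come from the same 3 embryos and are not independent. The brightest probe set averaged 0.13 without embryo 1, 0.20 without embryo 2 and 0.36 without embryo 3, and the second averaged 0.21, 0.15 and 0.27. The right pool of embryo 1, which carried the mesenchyme and muscle markers, was also above the left pool of embryo 1 in all 8 markers of progenitors (the dividing cells of the neuroepithelium), with a summed signal of 14116 in the right pool and 10335 in the left pool. Of the 8, Sox2, Pax6, Hes5 and Olig2 stayed under 200 in both pools of embryo 1. Mki67, a marker of dividing cells, read 3480 in its right pool and 1712 in its left pool. In embryos 2 and 3 the sum of the 8 was 16381 and 16392 in right pools, against 17309 and 17568 in left pools. N-cadherin is also made by mesenchyme, muscle and neuroepithelium, and the part of those cells in its signal was not tested.

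Cdh13 encodes T-cadherin, which is anchored in the membrane by a lipid and lacks the tail that binds catenins. In chick it is known as a negative guidance cue for motor axons, and vessels also express it. Its brightest probe set (1434115_at) read 959, 1321 and 903 in the right pools, against 844, 1154 and 835 in the left pools. Right was higher in all 3 embryos by nearly the same ratio, with log2(R/L) of 0.18, 0.20 and 0.11, a mean of 0.16 ± 0.04 (SD, n = 3) and a 95% interval from −0.24 to 0.57. At the deposited scaling, the SD over embryos of this probe set was at or above that of only 1.35% of all tested probe sets. The limma test, which sets the spread of a probe set against that of others of like signal, gave an adjusted p of 0.974. The other tested probe sets of Cdh13 did not share this direction in embryo 1. They averaged −0.07 ± 0.36 (1423551_at, signals from 372 to 561) and −0.17 ± 0.54 (1454015_a_at, 82.9 to 209.8), and embryo 1 gave −0.48 and −0.79. A last probe set stayed between 2.56 and 5.71 and was not tested. These ratios are all at the deposited scaling. With the arrays scaled to equal medians, the mean log2(R/L) of the brightest probe set was 0.08 (limma, adjusted p = 0.996). Its spread over embryos was not examined at that scaling.

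Cdh4 encodes R-cadherin, a classical cadherin close to N-cadherin. It passed the limit with 1 of 3 probe sets (1456397_at), which read 214, 469.9 and 371 in right pools, against 387, 267 and 424 in left pools. Embryos 1 and 2 went opposite ways, with log2(R/L) of −0.85 and 0.82, and embryo 3 gave −0.19. The mean was −0.08 ± 0.84 (95% interval −0.86 to 0.71, limma adjusted p = 0.993), so no difference of the sides was detectable and an average difference of 1.5-fold lies within the interval. A second probe set (1449422_at) stopped just short of the limit, at 127, 186 and 164 in right pools and 65.8, 193 and 188 in left pools. The third stayed at or below 29.1.

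The alpha-catenins bind beta-catenin at one end and actin at the other. Ctnna1 encodes the widely expressed form and Ctnna2 the neuronal one. The brightest probe set of Ctnna1 (1448149_at) read 1512, 2808 and 3271 in the right pools of embryos 1, 2 and 3, against 1902, 3156 and 2514 in the left pools. Left was higher in embryos 1 and 2 and right in embryo 3, and the side means were nearly equal, at 2530.2 ± 912 in right pools and 2524 ± 627 in left pools (SD, n = 3). Its mean log2(R/L) was −0.04 ± 0.37 (95% interval −0.44 to 0.36, limma adjusted p = 0.993). The next probe set (1437807_x_at, of a class that can also read related transcripts) averaged −0.02 ± 0.18, at signals from 1172 to 1959. The third probe set of Ctnna1 (1436631_at) missed the limit and was either on or nearly off in a pool, with 180.5, 162 and 11.2 in right pools and 2.61, 174 and 4.12 in left pools, so its ratios have no exact size, and the last stayed at or below 29.05.

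Ctnna2 has 1 probe set (1448895_a_at). It read 3149.9, 3889 and 2388 in right pools, against 3047, 3359.9 and 2678 in left pools. Embryo 2 was highest and embryo 3 lowest on both sides, and the mean log2(R/L) was 0.03 ± 0.19 (95% interval −0.30 to 0.36, limma adjusted p = 0.993).

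Beta-catenin and plakoglobin occupy the same place in the complex, and plakoglobin (Jup) is also a part of desmosomes, the junctions of epithelia and heart muscle. The brightest probe set of Ctnnb1 (1420811_a_at) read 16387, 14176 and 15089.8 in right pools, against 14415, 16089.9 and 14456 in left pools. It had the narrowest interval of the 17, from −0.23 to 0.28 around a mean log2(R/L) of 0.02 ± 0.19 (limma, adjusted p = 0.993), which is a fold of 0.850 to 1.21. Its embryos differed in direction, with 0.18, −0.18 and 0.06. The second probe set (1450008_a_at) averaged −0.19 ± 0.25 at signals from 1247 to 1744 and the third (1430533_a_at) −0.11 ± 0.69 at 238 to 445. Over the 3 probe sets, read in the same 3 embryos, right was higher in 5 of 9 ratios. Jup has 1 probe set (1426873_s_at), which read 97.0, 108 and 120.4 in right pools, against 104.6, 80.4 and 95.4 in left pools. None of these reached the signal limit of 200, so Jup was not tested. Signals are not detection calls, and levels of different probe sets cannot be set against each other, so the data do not rank Jup against Ctnnb1.

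The p120 family binds the part of the cadherin tail nearest the membrane. Ctnnd1 encodes p120-catenin, found in most tissues, and Ctnnd2 delta-catenin, found mainly in neurons. The brightest probe set of Ctnnd1 (1437448_s_at) read 1057, 890.2 and 615 in right pools, against 756, 889 and 666 in left pools. Only embryo 1 departed from an even ratio, with log2(R/L) of 0.48, 0.00 and −0.11 and a mean of 0.12 ± 0.32 (95% interval −0.35 to 0.60, limma adjusted p = 0.978). A second probe set (1422450_at) gave 0.66, −0.09 and −0.12. Both averaged below 0 without embryo 1, at −0.06 and −0.10. The third probe set (1445830_at) had the widest spread of all 17, with 385, 69.4 and 187 in right pools against 7.31, 381 and 188 in left pools. Its log2(R/L) was 5.72, −2.46 and 0.00. Because the left pool of embryo 1 was close to no signal, the first of these and the mean of 1.09 ± 4.20 (95% interval −1.80 to 3.97) have no exact size, and the mean was −1.23 without embryo 1.

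The brightest probe set of Ctnnd2 (1456116_at) read 1223, 1334 and 1619.8 in right pools, against 962, 1443 and 1879.98 in left pools. The mean log2(R/L) was 0.01 ± 0.30 (95% interval −0.41 to 0.42, limma adjusted p = 0.998), with right higher in embryo 1 only. Its other probe set (1422592_at) had a mean ratio of 0.46 ± 0.74, which rested on embryo 2. There the right pool read 1256 and the left pool 509, whereas embryo 1 read 1029 and 921 and embryo 3 read 1078 and 1141 in right and left pools. Without embryo 2 the mean was 0.04. The interval ran from −0.16 to 1.08 (limma, adjusted p = 0.974).

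**Figure D2:**
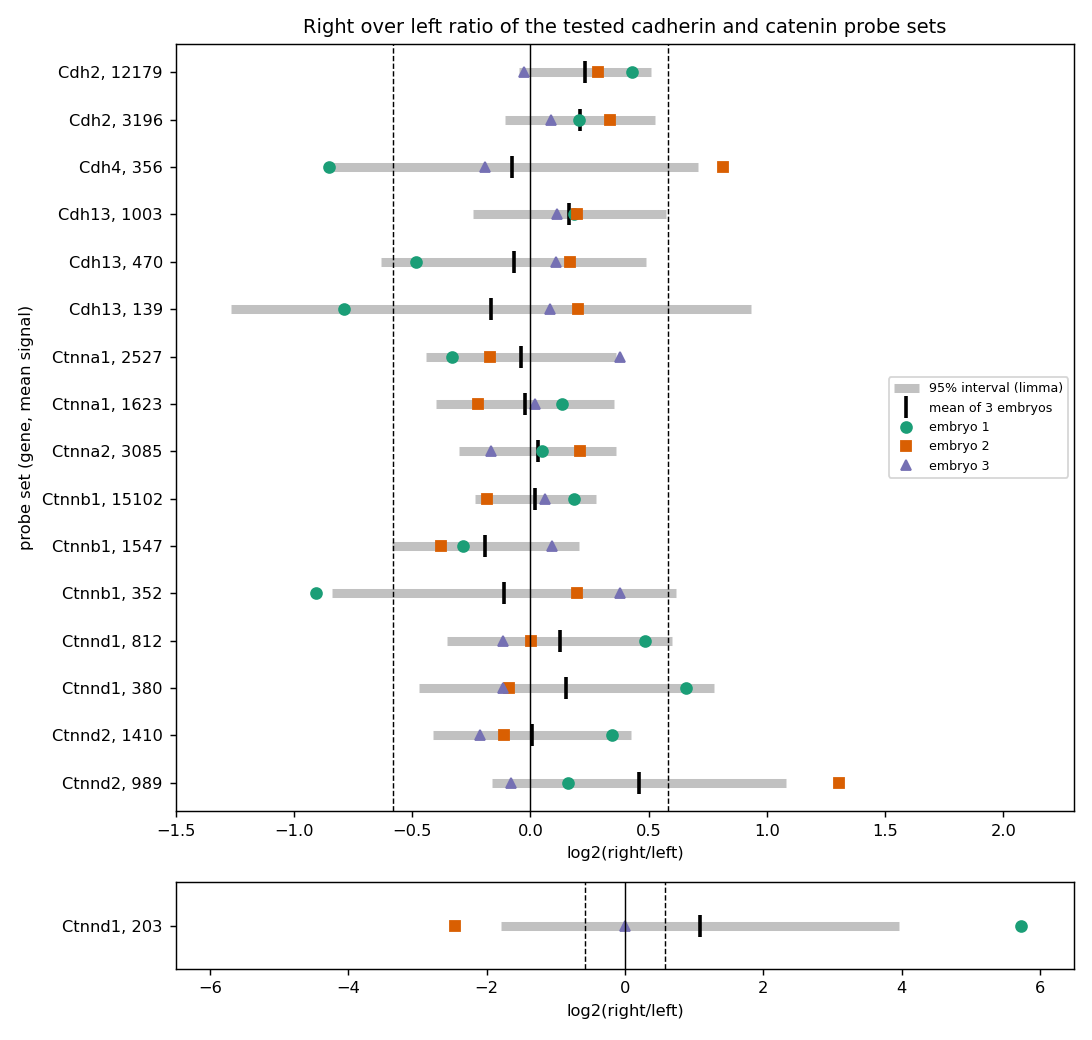
Log2(R/L) of the 17 tested probe sets in each of 3 embryos (coloured symbols), with the mean (black mark) and the 95% interval from limma (grey), dashed lines at −0.58 and 0.58, and the mean signal of the 6 pools beside each gene; the probe set of Ctnnd1 with the widest spread has an axis of its own. All 17 intervals hold 0, and 8 lie wholly between the dashed lines.

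The spread between embryos followed the signal. For the 9 member probe sets with a mean signal of at least 1000 the median SD of log2(R/L) over the 3 embryos was 0.189, against 0.2503 over all 6985 tested probe sets of that brightness. For the 8 below it was 0.617, against 0.494 over all 14868. A ratio beyond 0.58 in at least 1 embryo occurred in 6 of the 17 (35.3%), as it did in 51.6% of all tested probe sets. These were 1 probe set each of Cdh4, Cdh13, Ctnnb1 and Ctnnd2 and 2 of Ctnnd1, and apart from that of Ctnnd2 they had signals of at most 469.9 in every pool.

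**Figure D3:**
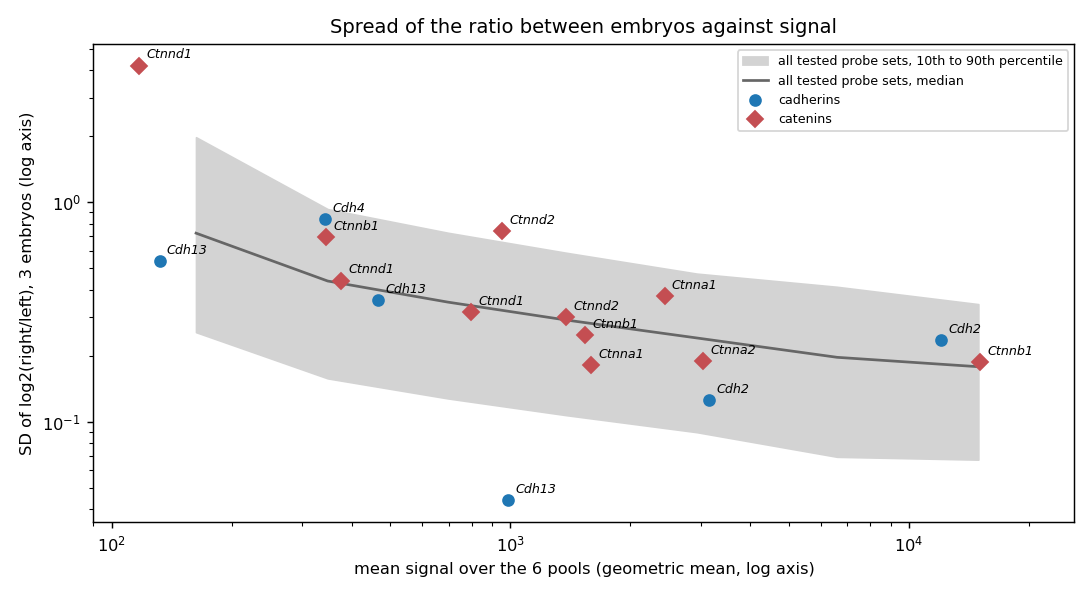
SD of log2(R/L) over 3 embryos (log axis) against the geometric mean signal of the 6 pools (log axis) for the member probe sets, cadherins as blue circles and catenins as red diamonds, over the median (line) and the 10th to 90th percentile (grey) of all 21853 tested probe sets in bins of signal. Most members follow the grey band downward with signal, the brightest probe set of Cdh13 lies below it, and 1 probe set each of Ctnnd1 and Ctnnd2 lies above it.

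Levels of the members were also compared between the 3 littermates, with the F test of the embryo terms in the same fit, for which the spread between the pools of an embryo is the error. Each embryo is a single animal, so the test describes these 3 embryos only. Of the 17 probe sets 3 had an unadjusted p under 0.05 (17.6%, against 15.3% of all tested probe sets) and 0 passed an adjusted p of 0.05 (0.270% of all). The 3 were both tested probe sets of Ctnna1 and the brightest of Ctnnd2. Ctnna1 was lower in embryo 1, where the brightest probe set lay 0.78 below the mean of embryos 2 and 3 on the log2 scale (limma F, adjusted p = 0.177) and the next one 0.56 below (adjusted p = 0.282). The pools of embryo 1 did not overlap those of the others in either probe set. The share of all tested probe sets with such a separation was not counted, here or for Ctnnd2 below. The brightest probe set of Ctnnd2 was also lowest in embryo 1, by 0.52 (adjusted p = 0.307), without overlap, but the other probe set of Ctnnd2 was not, with embryo 1 lying 0.05 above the mean of embryos 2 and 3 (adjusted p = 0.700). Cdh2 lay 0.36 and 0.40 lower in embryo 1 in its 2 probe sets (adjusted p = 0.348 and 0.358), and Ctnnb1 hardly varied, with a range of 0.06 between the embryo means. The summed signal of the 8 progenitor markers, given beside Cdh2, was lowest in embryo 1 on both sides. Taken singly, 5 of the 8 were lowest in embryo 1 among right pools and 7 among left pools. Both counts include Olig2, which stayed at or below 76.4 in every pool. Sox2, a factor of neural progenitors, read 193, 443 and 839.5 in right pools and 26.3, 808 and 964 in left pools, whereas Mki67, which marks dividing cells, was highest in embryo 1 among right pools, at 3480.2, 1401 and 2104 in right pools and 1712, 1998 and 2097 in left pools. The sums of the motoneuron markers ran the other way, at 43413, 31083 and 26223 in right pools and 43964, 35184 and 26042 in left pools. Prph alone read 23486, 14011 and 10753 in right pools and 23019, 15618 and 10514 in left pools. Mnx1, Lhx3, Slc18a3, Slc5a7 and Prph were highest in embryo 1 on both sides. Isl1 and Chat were so among right pools only and Isl2 among left pools only, and Ret was highest in embryo 2 on both sides. The part of progenitors and motoneurons in the levels of Ctnna1, Ctnnd2 and Cdh2 was not tested.

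**Figure D4:**
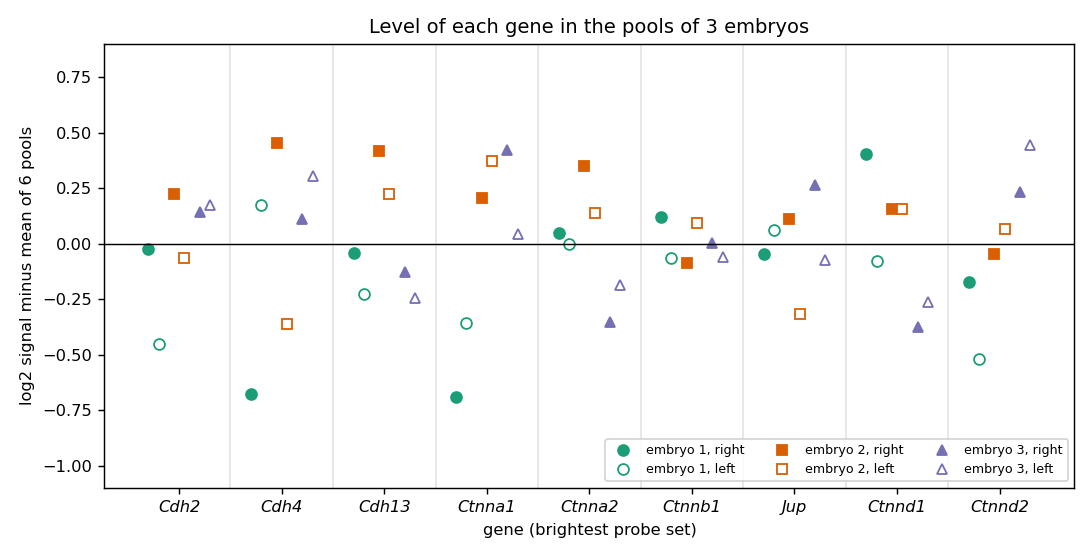
Log2 signal of the brightest probe set of each gene in each pool, minus the mean of its 6 pools, for right (filled) and left (open) pools of 3 embryos. The pools of embryo 1 lie below those of the other embryos for Ctnna1 and Ctnnd2, and the 6 pools of Ctnnb1 lie close together.

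The genes that act with the members were read in the same way. A list of 25 genes of the adherens junction (other cadherins and catenins, nectins and afadin, actin-binding proteins of the junction, and the proteases that cut N-cadherin) had 24 on the array and 18 tested, with 33 probe sets. Of these 33 the fold rule found 0 with right higher and 0 with left higher, against 2.40% and 1.55% of all tested probe sets. Limma called 0 after adjustment (0% of all), and 1 had an unadjusted p under 0.05 (3.40% of all). The median log2(R/L) was 0.09, against 0.02 over all tested probe sets. The largest mean ratio was that of Nectin3, an immunoglobulin-type adhesion molecule of the junction, in a probe set with log2(R/L) of 3.03, 0.14 and −0.44 and a mean of 0.91 ± 1.86. Its other 4 tested probe sets averaged 0.45, −0.21, −0.52 and −0.58, and the last of these (1448673_at) was the 1 with an unadjusted p under 0.05 (limma, adjusted p = 0.974). So the probe sets of Nectin3 disagreed in direction. Lpp, a LIM protein of junctions and focal adhesions, came next with 1.84, −0.22 and 0.13 (mean 0.58 ± 1.10), which rested on embryo 1. Its other 3 tested probe sets averaged 0.55, 0.14 and −0.18, the last with left higher in all 3 embryos.

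A second list of 21 genes, which destroy beta-catenin or act with it in the nucleus, had 20 on the array and 17 tested, with 43 probe sets. The fold rule found 0 in either direction, against 2.40% (right) and 1.55% (left) of all tested probe sets. Limma called 0 (0% of all), with 0 at an unadjusted p under 0.05 (3.40% of all), and the median log2(R/L) was −0.04. The largest mean ratio in absolute value was that of a dim probe set of Btrc, a subunit of the ubiquitin ligase that marks beta-catenin, with log2(R/L) of 1.52, −5.78 and 0.43 and a mean of −1.28 ± 3.94. In embryo 2 the right pool read 3.82 and the left pool 211, so neither that ratio nor the mean has an exact size, and the other embryos had right higher. Its other 4 tested probe sets averaged between −0.28 and 0.25. Axin2, a scaffold of the destruction complex and a target of Wnt signalling, followed with 1.07, 1.16 and −0.55 and a mean of 0.56 ± 0.96, at mean signals of 335 in right pools and 206 in left pools (limma, adjusted p = 0.974).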

How the data were processed

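The arrays were Affymetrix mouse arrays, 1 per pool, hybridised with amplified, biotin-labelled RNA. The deposited numbers are linear signal intensities that the authors made with MAS5 in Affymetrix Expression Console (version not given in the sources used here). Present and absent calls were not used here. The 64 control probe sets were left out. Signals were taken to log2 with no added constant and no further scaling, and probe sets whose highest signal over the arrays was under 200 were not tested. Genes come from the platform annotation of the array, and symbols of the partner genes were updated by gene ID.

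Sides and embryos were compared with limma (3.58.1, R 4.3.3). Its terms were side and embryo, with a variance trend on signal and Benjamini-Hochberg adjustment over all 21853 tested probe sets (threshold 0.05). Embryo is a term because both pools of an embryo come from the same animal and sections. After subtraction of the side means, the correlation of right with left pool over the tested probe sets was 0.241 in embryo 1, 0.215 in embryo 2 and 0.495 in embryo 3. The number of arrays limits the precision.

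All 9 genes are described, with pool values for the brightest probe set (highest mean log2 signal). Of the partner lists, genes that met the fold rule were to be named, and otherwise the 2 per list with the largest mean ratio in absolute value. Other probe sets and genes named were chosen after their values were seen. The members and lists were chosen with earlier results of these data known. The alternatives tried were 2 other scalings (quantile and median), a constant of 50 on each signal, a signal limit of 500, a limit of 200 on the mean and no limit, each embryo left out, a fit without the embryo term, a fit without the variance trend, a fold limit of 2, the fold limit required in every embryo, and gene averages over probe sets.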

Additional observations from a re-analysis of the deposited data

How the results depend on the processing

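For the member probe sets, the counts by the fold rule and by limma were 0 under every alternative run, and without the replicate block, that is with side as the only term, limma again called 0. The members had 17 probe sets at the main signal limit and 23 with no limit. Over all probe sets the fold rule found 6.23% (right) and 3.77% (left) with no limit, and 0.915% and 0.906% without embryo 1. With so few member probe sets, a count of 0 says little. Shares by limma over all probe sets are given for the main settings only. Of 95 values of log2(R/L) for the brightest probe sets of 8 genes, 82 kept their sign, 0 passed the threshold and the lowest adjusted p was 0.917. The other 13 changed sign. By construction, the signal limits and the fits without the embryo term or the variance trend leave each ratio as it was. Gene averages do the same for Cdh4 and Ctnna2, which have 1 tested probe set each. All 13 changes fell among the remaining values, so 82 of 95 overstates how stable the signs were. By its construction, median scaling shifted each mean ratio by −0.086 and gave −0.055 for Ctnna2, −0.065 for Ctnnb1 and −0.080 for Ctnnd2. Quantile normalization gave −0.0075 for Ctnnb1, and the mean of all probe sets gave −0.024 for Cdh13 and −0.093 for Ctnnb1, with 0.45 for Ctnnd1 and 0.23 for Ctnnd2, whose brightest probe sets gave 0.12 and 0.01. Leaving out 1 embryo gave from 0.13 to 0.36 for Cdh2, −0.52 to 0.31 for Cdh4, 0.15 to 0.19 for Cdh13, −0.25 to 0.11 for Ctnna1, −0.059 to 0.13 for Ctnna2, −0.060 to 0.12 for Ctnnb1, −0.056 to 0.24 for Ctnnd1 and −0.16 to 0.12 for Ctnnd2. With no signal limit the fold rule found 3 (right) and 1 (left) of 58 probe sets of the adherens junction list and 4 (right) and 0 (left) of 59 of the beta-catenin list, against 6.23% (right) and 3.77% (left) of all 45037. With 1 embryo left out it found 0 to 3 (right) and 0 to 1 (left) of 33 in the first list and 0 to 2 (right) of 43 in the second, and without embryo 3, which gave the highest of these, it found 4.90% (right) and 2.94% (left) of all. The cause of these changes was not tested.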
